A study of Mus musculus with 36 samples.

Results

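Immediate early genes were followed across a ribosome profiling study of mouse brain RNA granules. The 10 genes are Arc, Fos, Fosb, Junb, Jun, Egr1, Egr3, Npas4, Nr4a1 and Ier2, taken by gene name as 10 of the 16614 rows of the count table, and each name matched 1 row. Ribosome-protected fragments (RPFs), the pieces of mRNA that a ribosome shields from nuclease, came from 2 parts of a sucrose gradient. The study takes the pellet to hold RNA granules with stalled ribosomes, and fraction 5/6 to hold ribosome clusters that stay in the gradient. RNA-seq libraries were made from whole brain homogenate. Each preparation pooled 10 brains of C57BL/6 mice at postnatal day 5, either wild type (WT) or FMR1 KO. The latter lack FMRP, the RNA-binding protein lost in fragile X syndrome. A standard preparation (10 mM MgCl2, standard nuclease) and a low nuclease preparation (2.5 mM MgCl2) were each made with 3 libraries for every genotype and source, giving 12 groups and 36 libraries. The pooled brains give no value for single animals. Comparisons below use the standard preparation, and the low nuclease libraries are described after them.

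Immediate early genes are transcribed within minutes of synaptic activity, growth factors or stress, with no need for new protein, and their mRNAs are short-lived. Most encode transcription factors that carry the signal to a later set of genes. In the brain they are the usual readout of recently active neurons, while Arc acts at the synapse itself. They are induced mainly through CREB, SRF with its ELK partners, and MEF2, downstream of calcium channels and growth factor receptors.

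Levels are in CPM, counts scaled to a library total of 1000000 over the protein-coding genes without Cdk8. That row held 36.7% to 63.4% of all counts in the standard RPF libraries and at most 0.0338% in the standard RNA libraries, so it was kept out of the library sizes. Total counts ran from 6765065 to 40174168 in the standard RPF libraries and from 112249206 to 147216378 in the standard RNA libraries. The 10 most abundant genes took 14.6% to 30.4% of the remaining counts of the former and 5.00% to 7.21% of the latter. The median gene stood at 8.20 to 17.8 CPM in RPF libraries but at 27.7 to 29.7 CPM in RNA libraries, so levels are also given over the median gene of the same library (over 13573 genes counted in all 36). Fmr1 checked the genotype labels. It was at 64.8 to 68.1 CPM in the WT pellet, 4.80 to 4.94 CPM in the FMR1 KO pellet, 61.0 to 72.4 CPM in WT RNA and 16.5 to 18.2 CPM in FMR1 KO RNA. The library labelled WT fraction 5/6 replicate 3 went against its label, with Fmr1 at 3.18 CPM where replicates 1 and 2 had 100.5 and 68.8 CPM, and the WT enrichment results are also given without it. It correlated with its group at Pearson's r of log2 CPM of 0.930 and 0.924, against 0.936 for the other pair. FMR1 KO pellet replicate 2 correlated with its group at 0.931 and 0.938, against 0.970 for the other pair. In the low nuclease preparation, 3 RNA libraries (WT replicate 2, FMR1 KO replicates 2 and 3) had 81.6% to 85.0% of their counts in 10 genes. Neuronal markers were present in all groups, with a summed level of 5910 to 7070 CPM in the WT pellet and 4674 to 5719 CPM in WT RNA. Hemoglobin and other erythroid markers, 5 of 5 detected, were at 7.32 to 19.3 CPM in the WT pellet and 238 to 555 CPM in WT RNA, and their part in the differences below was not tested.

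Occupancy, the amount of RPF in the pellet against the RNA in the homogenate, separated the immediate early genes. In WT, Arc, Fos, Junb, Jun and Egr1 were higher in the pellet and Egr3 was lower, while Fosb, Npas4, Nr4a1 and Ier2 did not pass the test. In FMR1 KO, Arc, Fos, Junb and Jun were higher, and Egr3, Npas4 and Nr4a1 were lower. In WT, 5 of 10 members were therefore called higher and 1 lower (edgeR quasi-likelihood test, Benjamini-Hochberg adjusted p under 0.05), where 31.1% of all genes tested were called higher and 34.2% lower. The FMR1 KO counts were 4 of 10 higher and 3 of 10 lower, against 31.7% and 35.1% of all genes. The members' median log2 fold change was 0.51 in WT and 0.19 in FMR1 KO, beside -0.10 and -0.07 over all genes. Bulk brain cannot tell fewer cells of a type from less RNA per cell, on either side of this ratio.

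These directions depend on where zero is set. With library size alone in place of TMM, the median gene lay at -1.26 in WT and -1.17 in FMR1 KO, and the calls over all genes went from 5002 higher and 5508 lower to 1399 and 10898 in WT, and from 5101 and 5656 to 1276 and 9986 in FMR1 KO. Under that scaling no member was called higher in either genotype, with 7 lower in WT and 6 in FMR1 KO. Against the median gene the values barely moved. Jun stood 0.89 above it in WT under both scalings, Arc 0.76 and 0.77 above it, and Egr3 0.62 below it under both. The log2 values below are those fitted with TMM, under which each member's value has the same sign relative to the median gene.

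**Figure D1:**
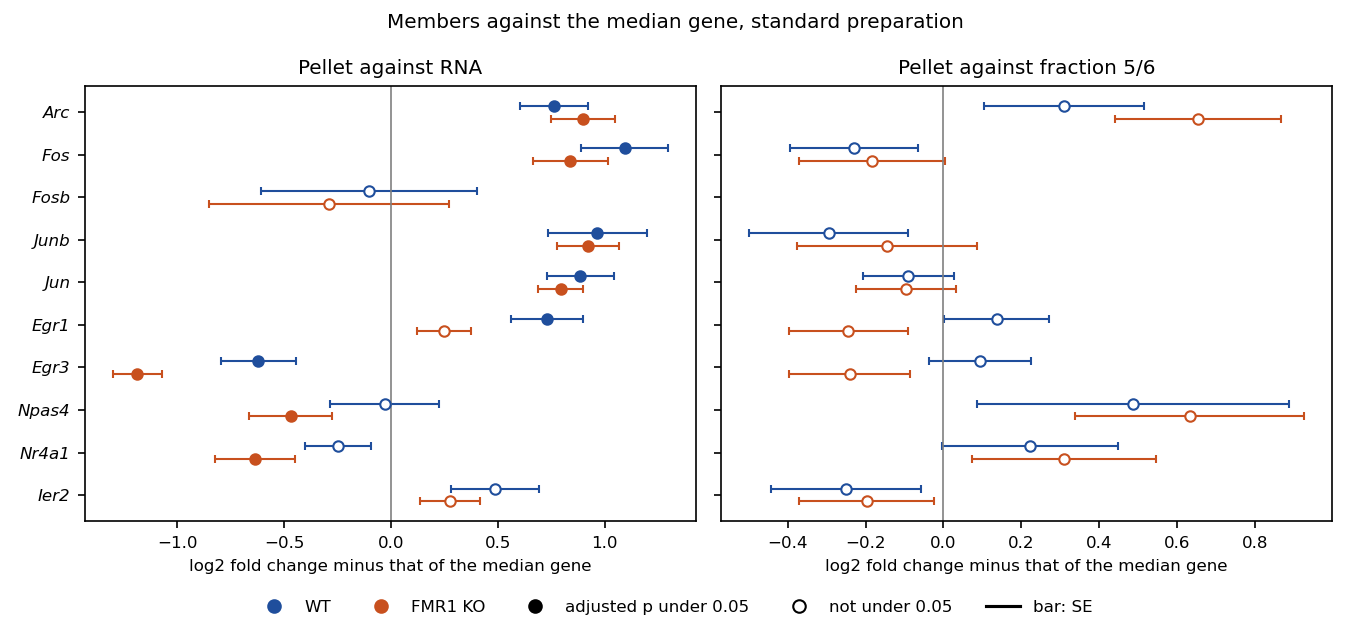
The log2 fold change of each immediate early gene minus that of the median gene (x axis) in the standard preparation, for pellet against RNA on the left and pellet against fraction 5/6 on the right, with 3 libraries per group. Points are edgeR estimates, bars are SE, and filled points have an adjusted p under 0.05; Arc, Fos, Junb and Jun lie right of zero on the left in both genotypes, Egr3 lies left, and no point on the right is filled.

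Jun, Junb, Fos and Fosb encode subunits of the AP-1 transcription factor, in which a Jun protein pairs with a Fos or another Jun protein through a leucine zipper. Jun is a gene without introns on chr4:95049034-95052222 (minus strand, GRCm38), and its row can share reads with the antisense gene Junos, since the sources used here do not say whether counting used strand. It was the most abundant member. The 3 WT pellet libraries held Jun at 51.6, 62.4 and 53.1 CPM, and the FMR1 KO pellet libraries at 52.4, 41.8 and 70.6 CPM. WT RNA held 55.5, 79.8 and 80.5 CPM, and FMR1 KO RNA 73.2, 66.0 and 73.5 CPM. In CPM the pellet and RNA values overlapped in both genotypes, whereas over the median gene they did not. The share of all genes whose pellet and RNA ranges did not overlap on this measure was not counted, here or for the members below. By the ratio of counts to Jun, most genes did not overlap (70.5% in WT and 73.1% in FMR1 KO). Jun was 4.82 to 5.26 times the median gene in the WT pellet against 1.95 to 2.86 times in WT RNA, and 4.50 to 5.69 against 2.38 to 2.56 times in FMR1 KO. Its occupancy was 0.79 ± 0.16 in WT (log2, SE; edgeR adjusted p = 0.00326) and 0.73 ± 0.11 in FMR1 KO (edgeR adjusted p = 0.00083).

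Jun was also the member with RPF peaks in each library, where a peak is an interval of high RPF coverage that the authors called on a transcript, separately per library. Of 235 such peaks on the members in the 12 standard RPF libraries, Jun carried 144, with 9 to 16 per library and heights from 12 to 62. All 144 had their middle within the coding sequence, which spans bases 952 to 1956 of the transcript with the stop codon. The first peak began between bases 934 and 955, and the last one ended between bases 1918 and 1972. An interval held the start codon in 10 of 12 libraries and the stop codon in 7 of 12. Counting a position as shared when peak middles lay within 6 nt, middles recurred near base 1601 in 10 of 12 libraries and near base 1822 in 9 of 12, and both positions were met in all 6 pellet libraries. Base 959, just after the start codon, recurred in 8 libraries, 5 of them from the pellet, and base 1871 in 8, 4 of them from the pellet. The stretches of the Jun mRNA at its start codon (a stretch that also holds base 959), at the other 3 recurrent positions and at its stop codon are shown because they carry the peaks that returned between libraries. Each reads 5′ to 3′ on the mRNA strand, with the start codon, the codon at the recurrent position or the stop codon in capitals, and lies in the single exon on the minus strand of GRCm38 at chr4:95051242-95051271, chr4:95050606-95050635, chr4:95050384-95050413, chr4:95050336-95050365 and chr4:95050267-95050296 in turn.
Jun start codon: ATGactgcaaagatggaaacgaccttctac
Jun base 1601: cacttgccccaaCAGatcccggtgcagcac
Jun base 1822: gtgaaaaccttgAAAgcgcaaaactccgag
Jun base 1871: atgctcagggaaCAGgtggcacagcttaag
Jun stop codon: atgctaacgcagcagttgcaaacgtttTGA

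**Figure D2:**
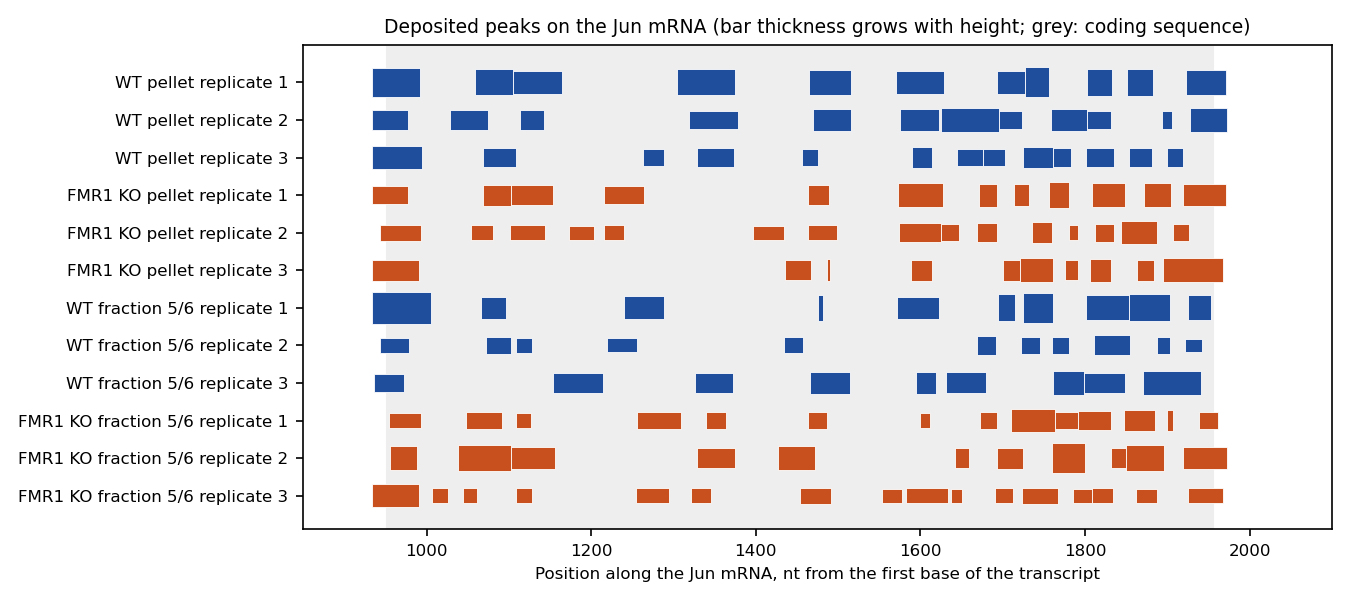
Peaks deposited for the Jun mRNA in the 12 standard RPF libraries (1 row each), plotted by position in nt from the first base of the transcript. Bars span the called interval and grow thicker with height, which is not scaled between libraries, and the grey band is the coding sequence; peaks lie along the coding sequence in every library, with intervals that sum to 29.0% to 51.5% of its length, and recur near bases 1601 and 1822 in all 6 pellet libraries.

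Positions found in all 3 libraries of a group numbered 6, all of them on Jun. The WT pellet had one at bases 1598 to 1601 and another at 1816 to 1817, and the FMR1 KO pellet had one at 1599 to 1600 and another at 1823. WT fraction 5/6 had base 1826, which the library labelled replicate 3 shared with the other two, and FMR1 KO fraction 5/6 had bases 1945 to 1950. The number of such positions ranged from 0 when middles had to coincide to 17 within 15 nt, and was 37 when 2 of 3 libraries sufficed.

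Junb lies on chr8:84974484-84978718 (minus strand) and overlaps Prdx2 on the opposite strand, a gene that is also in the table. Its level was 14.0, 17.1 and 11.7 CPM in the WT pellet and 12.5, 11.5 and 15.4 CPM in the FMR1 KO pellet. RNA held 12.1, 22.4 and 17.4 CPM in WT and 16.4, 16.4 and 14.1 CPM in FMR1 KO. Over the median gene the pellet lay above RNA in every library, at 1.16 to 1.40 against 0.424 to 0.805 times in WT and 1.07 to 1.29 against 0.490 to 0.594 times in FMR1 KO. The occupancy of Junb was 0.87 ± 0.23 in WT (edgeR adjusted p = 0.0128) and 0.85 ± 0.14 in FMR1 KO (edgeR adjusted p = 0.00171). Junb had 51 peaks in 11 of the 12 RPF libraries, all with their middle within its coding sequence, with 0 to 11 per library. Its most recurrent position, base 656, was met in 5 libraries, 2 of them from the pellet, and lies in this stretch (chr8:84978046-84978075, minus strand, codon at that base in capitals).
Junb base 656: ggaggtacagggGGCggcgtcaccgaggag

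Fos, on chr12:85473890-85477273, stood at 6.75, 9.60 and 6.39 CPM in the WT pellet and 6.51, 5.52 and 9.74 CPM in the FMR1 KO pellet. WT RNA held 6.46, 9.24 and 9.55 CPM, and FMR1 KO RNA 8.24, 8.35 and 10.6 CPM. Over the median gene, pellet levels of 0.630 to 0.785 times in WT and 0.559 to 0.786 times in FMR1 KO lay above RNA levels of 0.227 to 0.332 and 0.288 to 0.367 times. Its log2 fold change was the highest of the 10 in WT, at 0.99 ± 0.20 (edgeR adjusted p = 0.00363), and was 0.77 ± 0.18 in FMR1 KO (edgeR adjusted p = 0.00678). The peak lists held 0 peaks on Fos, and 0 on Fosb, Npas4 and Nr4a1. Fosb (chr7:19302696-19310051) was the scarcest AP-1 member, with 5 to 12 counts in the WT pellet, 4 to 10 in the FMR1 KO pellet and 3 to 10 in fraction 5/6 of both genotypes. At 0.236 to 1.01 CPM in the pellet and 0.889 to 2.86 CPM in RNA, its occupancy of -0.20 ± 0.50 in WT (edgeR adjusted p = 0.74) and -0.36 ± 0.56 in FMR1 KO (edgeR adjusted p = 0.594) could not be told from zero at this depth.

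Egr1 and Egr3 encode zinc finger transcription factors that bind similar GC-rich sites. They had nearly equal counts in RNA and unequal counts in RPFs. Egr1, on chr18:34859823-34864984, was at 27.8, 29.9 and 28.7 CPM in the WT pellet and 22.5, 18.1 and 27.1 CPM in the FMR1 KO pellet. WT RNA held 31.7, 48.9 and 44.0 CPM, and FMR1 KO RNA 43.7, 46.4 and 37.8 CPM. Over the median gene the pellet lay above RNA without overlap in both genotypes. Levels were 2.44 to 2.84 against 1.11 to 1.75 times in WT. FMR1 KO had 1.93 to 2.19 against 1.31 to 1.67 times. Egr1 occupancy was 0.63 ± 0.17 in WT (edgeR adjusted p = 0.0133) and 0.18 ± 0.12 in FMR1 KO (edgeR adjusted p = 0.237). That gap between genotypes was itself -0.41 ± 0.22 (edgeR adjusted p = 0.853), so the occupancies are not shown to differ.

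Egr3 (chr14:70077203-70082614) went the other way. It measured 10.7, 12.5 and 9.17 CPM in the WT pellet and 8.13, 6.16 and 10.1 CPM in the FMR1 KO pellet. RNA levels were 29.9, 45.3 and 43.4 CPM in WT and 42.7, 42.8 and 38.8 CPM in FMR1 KO, above all pellet libraries. Over the median gene the WT pellet spanned 0.908 to 1.02 times and WT RNA 1.05 to 1.63 times, and the FMR1 KO pellet 0.688 to 0.818 times and FMR1 KO RNA 1.34 to 1.54 times, with no overlap in either. The occupancy was -0.72 ± 0.18 in WT (edgeR adjusted p = 0.00827) and -1.26 ± 0.11 in FMR1 KO (edgeR adjusted p = 8.91e-05). Within a library, the count of Egr3 was 0.927 to 0.985 times that of Egr1 in WT RNA and 0.320 to 0.418 times in the WT pellet. FMR1 KO had 0.923 to 1.03 times in RNA and 0.341 to 0.374 times in the pellet. Fraction 5/6 resembled the pellet, at 0.344 to 0.462 times in WT (0.344 and 0.359 without the library labelled replicate 3) and 0.318 to 0.404 times in FMR1 KO. These ratios need no scaling for depth, since both genes share the library, but they are not corrected for coding length. RPFs lie mainly in coding sequence, whereas RNA reads can come from the whole mRNA. Without the stop codon, the coding sequence spans bases 247 to 1845 of 3036 in the Egr1 transcript of the counts. For Egr3 it spans bases 132 to 1292 of 3940. The part of this in the ratios was not tested. Egr1 had 22 peaks in 6 of 12 RPF libraries, and Egr3 a single one, in WT fraction 5/6 replicate 1.

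**Figure D3:**
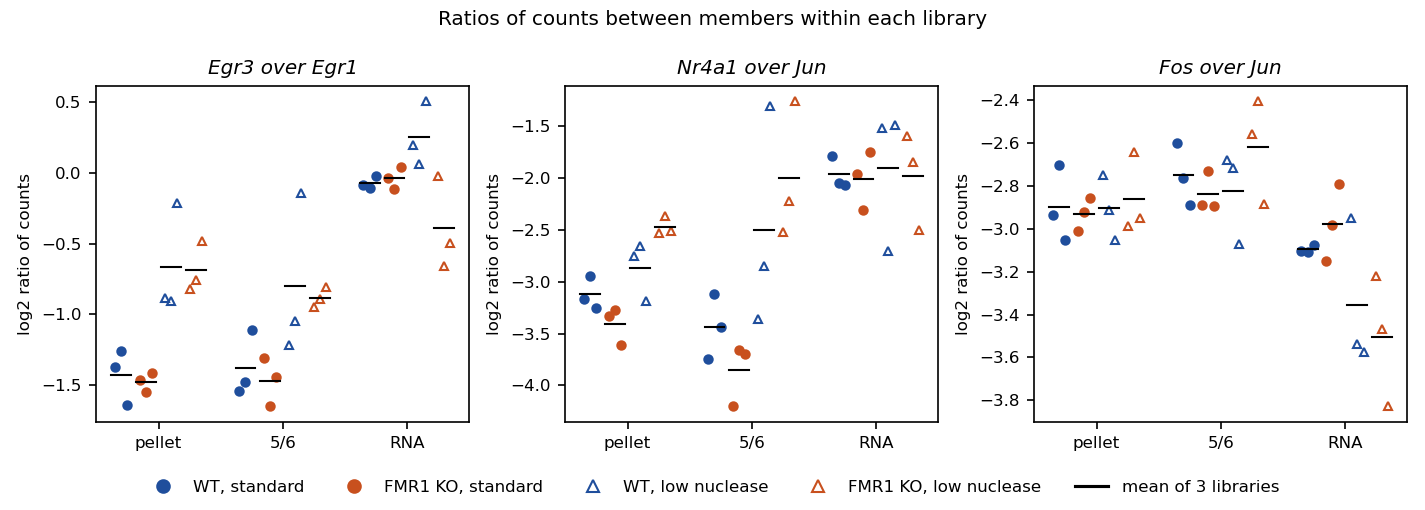
Log2 ratio of counts within each of the 36 libraries for Egr3 over Egr1, Nr4a1 over Jun and Fos over Jun, by source, genotype and preparation, with the mean of 3 libraries as a line. Egr3 over Egr1 is near zero in standard RNA and between -1.65 and -1.11 in standard RPF libraries. The low nuclease RPF libraries run from -1.21 to -0.14, and the lowest, in WT fraction 5/6, lies within the standard RPF range only through the library labelled WT fraction 5/6 replicate 3, since the others reach -1.26.

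Npas4 encodes a bHLH-PAS transcription factor induced by calcium influx into neurons, and Nr4a1 an orphan nuclear receptor. Npas4 (chr19:4984355-4990316) was scarce, at 2.08, 2.22 and 1.77 CPM in the WT pellet and 1.24, 1.04 and 1.45 CPM in the FMR1 KO pellet, which rest on 21 to 44 and 13 to 19 counts. RNA held 5.10, 5.92 and 3.73 CPM in WT and 4.02, 3.88 and 3.69 CPM in FMR1 KO. Its occupancy was -0.13 ± 0.25 in WT (edgeR adjusted p = 0.671) and -0.54 ± 0.19 in FMR1 KO (edgeR adjusted p = 0.0437). The FMR1 KO call was lost in 5 of 6 runs that left out 1 library, with adjusted p up to 0.139: it held only without FMR1 KO pellet replicate 2 (adjusted p = 0.0491). DESeq2 and the fit of all 6 groups did not call it either (adjusted p = 0.113 and 0.292).

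Nr4a1 (chr15:101254269-101274795) was at 5.75, 8.12 and 5.55 CPM in the WT pellet and 5.21, 4.32 and 5.80 CPM in the FMR1 KO pellet. WT RNA held 16.1, 19.3 and 19.2 CPM, and FMR1 KO RNA 18.8, 13.3 and 21.9 CPM, all above the pellet. Against the median gene the groups drew closer, with 0.537 to 0.664 times in the WT pellet and 0.566 to 0.693 times in WT RNA. In FMR1 KO the ranges, 0.447 to 0.482 times in the pellet and 0.482 to 0.758 times in RNA, overlapped too, at their ends. The occupancy was -0.35 ± 0.16 in WT (edgeR adjusted p = 0.0814) and -0.70 ± 0.19 in FMR1 KO (edgeR adjusted p = 0.0137). Without WT pellet replicate 2 the WT value passed (adjusted p = 0.0371), and without FMR1 KO RNA replicate 1 or 3 the FMR1 KO value did not (adjusted p up to 0.0551).

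Ier2 is an early response gene without introns whose nuclear protein takes part in transcription (chr8:84661331-84662852). It ran at 5.61, 6.07 and 3.87 CPM in the WT pellet, 5.14, 3.76 and 6.04 CPM in the FMR1 KO pellet, 7.09, 9.33 and 10.1 CPM in WT RNA and 9.16, 8.09 and 10.4 CPM in FMR1 KO RNA. Over the median gene the pellet was above RNA in each genotype, at 0.383 to 0.524 against 0.249 to 0.340 times in WT and 0.420 to 0.487 against 0.292 to 0.361 times in FMR1 KO. The log2 occupancy of 0.39 ± 0.20 in WT (edgeR adjusted p = 0.134) and 0.21 ± 0.14 in FMR1 KO (edgeR adjusted p = 0.227) did not pass the test, though the WT value did when all 6 groups shared a fit (0.50, adjusted p = 0.0139). Ier2 had 16 peaks in 8 of 12 libraries.

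Arc encodes a synaptic protein that drives removal of AMPA receptors, and is the member whose mRNA is known to travel into dendrites. Its gene spans chr15:74669083-74672570 on the minus strand. Arc levels were 10.9, 12.6 and 11.02 CPM in the WT pellet and 11.1, 7.28 and 15.1 CPM in the FMR1 KO pellet. In RNA they were 13.3, 19.0 and 16.3 CPM for WT and 12.6, 13.5 and 13.4 CPM for FMR1 KO. Relative to the median gene Arc was 1.02 to 1.09 times in the WT pellet and 0.469 to 0.681 times in WT RNA, and 0.812 to 1.21 and 0.440 to 0.488 times in FMR1 KO. Its occupancy of 0.66 ± 0.16 in WT (edgeR adjusted p = 0.00757) and 0.83 ± 0.15 in FMR1 KO (edgeR adjusted p = 0.00234) stayed past the threshold without any single library. One peak of height 8 was deposited on Arc, in WT pellet replicate 1.

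**Figure D4:**
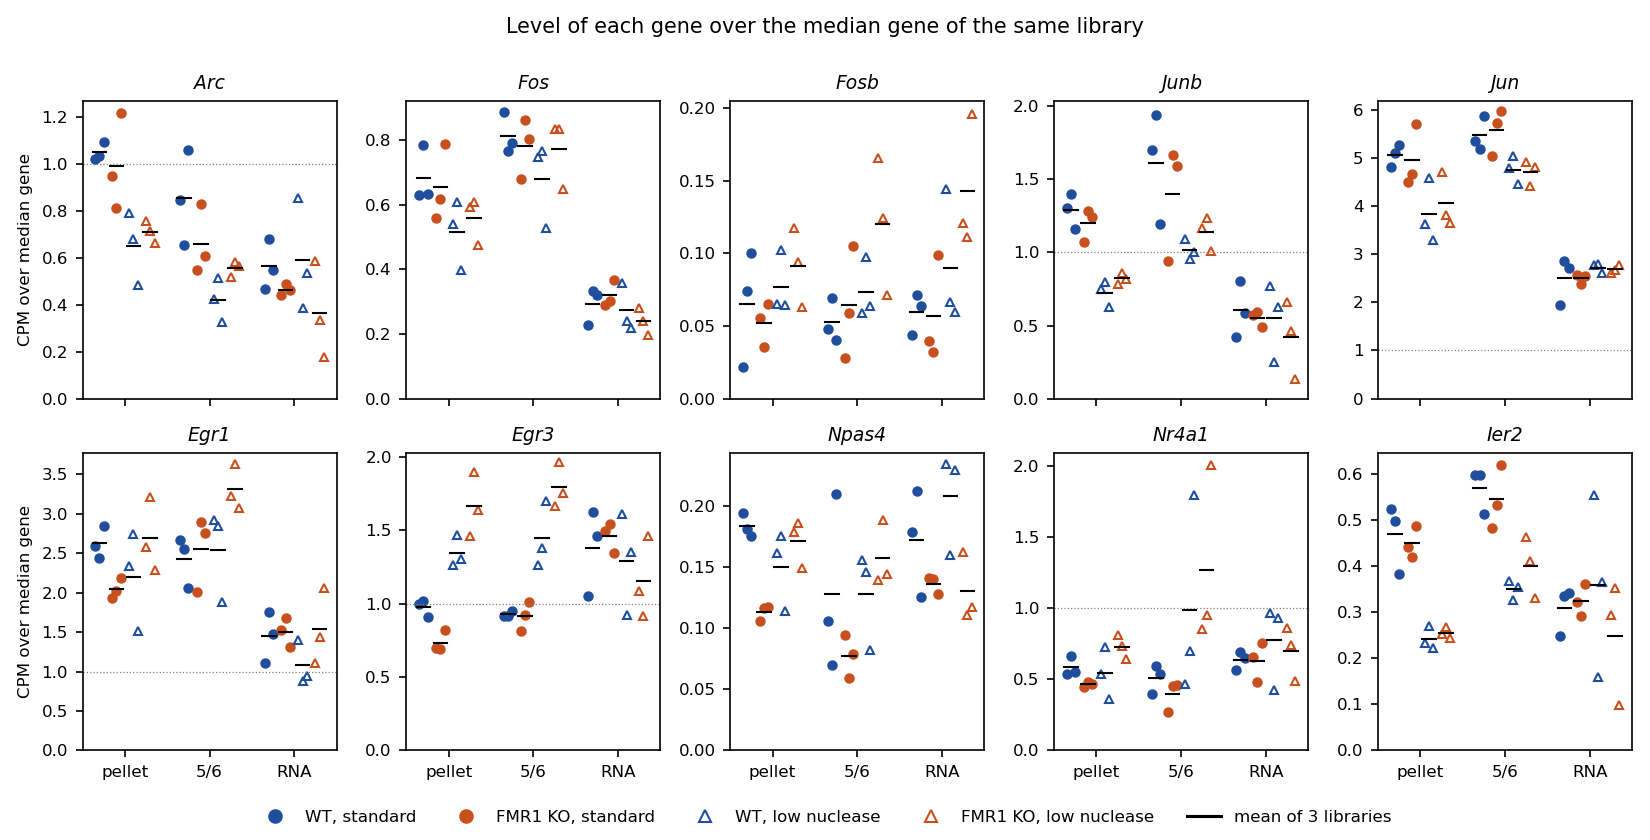
CPM of each gene over the CPM of the median gene of the same library (linear axis from 0, dotted line at 1 where in range), for pellet, fraction 5/6 and RNA, with 1 point per library. In the standard preparation the pellet points of Jun, Junb, Fos, Arc, Egr1 and Ier2 lie above the RNA points in both genotypes and those of Egr3 below. Pellet points of Egr3 in the low nuclease preparation lie between 1.26 and 1.90.

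Per kilobase of coding sequence, Jun led the members in the WT pellet with 55.6 ± 5.87 CPM per kb (SD, n = 3), then came Egr1, Junb with 13.8 ± 2.66, Arc with 9.71 ± 0.806 and Egr3 with 8.98 ± 1.38. The ranges of these neighbours did not overlap down to Junb and Arc, while Arc and Egr3, Egr3 and Ier2, and Ier2 and Fos overlapped. Nr4a1, Npas4 and Fosb closed the order. In WT RNA, per kilobase of exon, Jun again came first with 22.6 ± 4.47 CPM per kb, and Egr3 with 8.97 ± 1.90 stood 3rd, beside Egr1 with 9.26 ± 1.97 and Junb with 7.53 ± 2.25, which overlapped it. The order in FMR1 KO RNA began with the same 3 genes, and in the FMR1 KO pellet Egr3 stood 6th with 6.78 ± 1.66 CPM per kb. Measured against Jun within each library, 6 of the other 9 members were lower in the WT pellet than in WT RNA with no overlap, 1 (Fos) was higher, and Arc and Junb overlapped. The 6 were Fosb, Egr1, Egr3, Npas4, Nr4a1 and Ier2, and the same 6 were lower in FMR1 KO, where Fos overlapped too. Over all genes, 70.5% of ratios to Jun did not overlap in WT and 73.1% in FMR1 KO, either way, so the members' share was near the background.

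**Figure D5:**
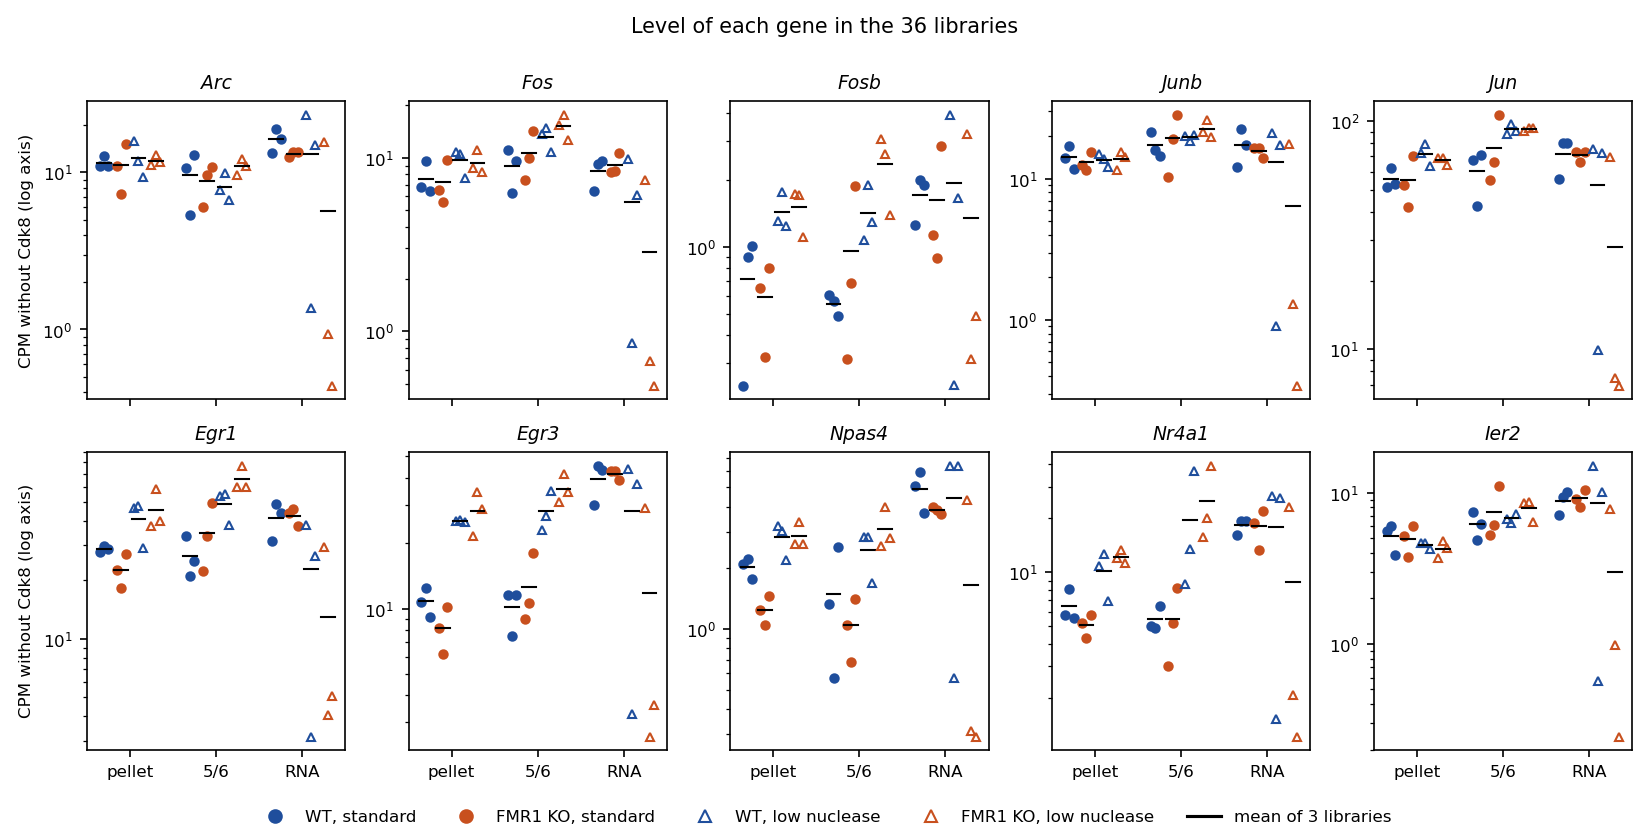
CPM without Cdk8 of the 10 genes in all 36 libraries (log axis), by source, genotype and preparation, with the mean of each 3 libraries as a line. Jun is highest and Fosb and Npas4 lowest in the standard groups, and 3 low nuclease RNA libraries sit below all others for each gene but Fosb and Npas4.

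Enrichment, pellet RPFs against those of fraction 5/6, asks which mRNAs are found in the pellet more than in fraction 5/6. None of the 9 members tested was called in either genotype, and Fosb, with 3 to 12 counts in these libraries, did not pass the filter on low counts. At an unadjusted p under 0.05, WT had 0 members and FMR1 KO 1, Arc, and DESeq2 also called 0. Over all genes, 0.0153% were called higher and 0.00766% lower in WT, and 10.1% and 1.41% in FMR1 KO. The WT count over all genes rests on the library labelled WT fraction 5/6 replicate 3: with it 3 genes were called, and without it 1261, still with 0 members. Arc had the largest value in FMR1 KO, at 0.66 ± 0.21 (edgeR adjusted p = 0.0951), from 6.01, 9.58 and 10.8 CPM in fraction 5/6. It was called when all 6 standard groups shared a fit, at 0.65 with adjusted p = 0.0463. In WT, Arc was 0.31 ± 0.20 (edgeR adjusted p = 0.64), from 10.6, 5.35 and 12.8 CPM in fraction 5/6, and 0.51 ± 0.16 (edgeR adjusted p = 0.122) without the library labelled replicate 3. Npas4 came next in FMR1 KO, at 0.64 ± 0.29 (edgeR adjusted p = 0.197), from 6 to 10 counts in fraction 5/6. The other 7 members lay between -0.30 and 0.22 in WT and between -0.23 and 0.32 in FMR1 KO, Jun at -0.09 ± 0.12 and -0.09 ± 0.13. In WT, Npas4 was at 0.49 ± 0.40 (edgeR adjusted p = 0.67). Once WT fraction 5/6 replicate 3 was left out it was at 1.03 ± 0.29 (edgeR adjusted p = 0.0988), Junb at -0.46 ± 0.14 (edgeR adjusted p = 0.119) and Jun at -0.02 ± 0.09.

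Between genotypes no member was called by edgeR or DESeq2. In RNA the 10 lay between -0.32 (Npas4) and 0.13 (Fos), where 0.074% of all genes were called, Fmr1 at -1.90 among them. In the pellet they lay between -0.67 and 0.00, where 0.0153% of genes were called, and Fmr1 fell by 3.72 on the log2 scale. The 3 members under an unadjusted p of 0.05 there were all lower in FMR1 KO. Npas4 was at -0.67 ± 0.20, Egr3 at -0.38 ± 0.13 and Egr1 at -0.32 ± 0.10, each with an edgeR adjusted p of 0.863. Over the median gene, Egr3 in the pellet spanned 0.688 to 0.818 times in FMR1 KO and 0.908 to 1.02 times in WT, Npas4 0.106 to 0.117 and 0.175 to 0.194 times, and Egr1 1.93 to 2.19 and 2.44 to 2.84 times. None of these ranges overlapped, nor did those of Nr4a1 (0.447 to 0.482 and 0.537 to 0.664 times), so 4 of 10 members were lower without overlap, where 11.2% of all genes did not overlap in either direction. In the low nuclease pellet all 10 members overlapped, and Npas4 was at 0.12, Egr3 at 0.24 and Egr1 at 0.23, none of them called. Occupancy differed most for Egr3, at -0.49 ± 0.22 (edgeR adjusted p = 0.802), and 0.0674% of genes were called. For enrichment the percentage called was 0 over all genes (edgeR; 761 genes with unadjusted p under 0.05, 41 called by DESeq2; also 0 called by edgeR with WT fraction 5/6 replicate 3 left out), and 0 of the 10 members had an unadjusted p under 0.05.

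In the low nuclease preparation Egr3 stood apart from its standard level. It was at 25.4, 25.4 and 25.1 CPM in the WT pellet, 21.5, 34.3 and 28.7 CPM in the FMR1 KO pellet, 23.1, 26.7 and 34.7 CPM in WT fraction 5/6 and 30.8, 41.4 and 34.2 CPM in FMR1 KO fraction 5/6. Over the median gene it was 1.26 to 1.47 times in the WT pellet and 1.46 to 1.90 times in the FMR1 KO pellet, above all standard pellet libraries. Its count over that of Egr1 was 0.534 to 0.861 in the WT pellet and 0.566 to 0.716 in the FMR1 KO pellet, between the standard pellet and standard RNA. In fraction 5/6 it was 0.517 to 0.571 in FMR1 KO, again between them, but 0.431 to 0.906 in WT, which overlapped the standard WT range through the library labelled replicate 3 alone (0.344 and 0.359 in the other two). Egr3 was the one member that was higher than in the standard preparation, without overlap, in the pellet and in fraction 5/6 of both genotypes, while Ier2 was lower in all 4. Counting over the median gene, the WT pellet had 1 member higher and 5 lower (59.4% of all genes did not overlap), WT fraction 5/6 had 1 and 4 (41.2%; again 1 and 4, beside 58.9%, without the library labelled standard replicate 3), the FMR1 KO pellet 4 and 3 (39.2%) and FMR1 KO fraction 5/6 4 and 2 (45%). Nuclease amount and MgCl2 changed together between the preparations. By the study's methods, so did the RNase I product, the digestion temperature and the way monosomes were recovered. These changes cannot be told apart.

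Low nuclease occupancy had Fos, Jun and Egr1 above zero in both genotypes, as in the standard preparation, and Egr3 on no single side. With all libraries 3 of 10 members were called higher in WT and 2 in FMR1 KO, beside 26.6% and 16.1% of all genes. In both, 0 members were called lower, beside 3945 of 15468 genes in WT and 1951 of 15163 in FMR1 KO. Egr1 was at 0.98 (edgeR adjusted p = 0.0203) and 0.84 (edgeR adjusted p = 0.0499). Fos was at 0.87 in WT (edgeR adjusted p = 0.0297) and 1.16 in FMR1 KO (edgeR adjusted p = 0.0355), and Jun at 0.46 (edgeR adjusted p = 0.0466) and 0.57 (edgeR adjusted p = 0.0742). Without the 3 RNA libraries held by 10 genes, a setting chosen after seeing the data, Fos was at 0.77 in both and Jun at 0.45 and 0.40, none of them called. Egr1 was then called in WT at 0.83 (edgeR adjusted p = 0.0471), and was at 1.06 in FMR1 KO (edgeR adjusted p = 0.0545). Npas4 at -0.69 (edgeR adjusted p = 0.0329), Nr4a1 at -0.88 (edgeR adjusted p = 0.0298) and Ier2 at -0.99 (edgeR adjusted p = 0.0113) were called lower in WT. These 1 higher and 3 lower stand beside 29.2% and 29.8% of all genes, and in FMR1 KO no member was called, beside 19.5% higher and 19.1% lower. Egr3 was at 0.01 in WT and 0.53 in FMR1 KO with those libraries and at -0.20 and 0.40 without them. Arc was at 0.08 and -0.16 in WT and 0.83 and 0.05 in FMR1 KO, with and without them, and Junb at 0.32 and -0.01 in WT and 0.84 and 0.09 in FMR1 KO. Neither was called in any of these, whereas both were called higher in both genotypes of the standard preparation. Low nuclease enrichment, which uses no RNA library, called Junb lower in the pellet in both genotypes, at -0.42 (edgeR adjusted p = 0.0448) and -0.51 (edgeR adjusted p = 0.048). Ier2 was called lower too, at -0.46 (edgeR adjusted p = 0.0408) and -0.70 (edgeR adjusted p = 0.0413). Over all genes, 8.69% were called lower in WT and 10.7% in FMR1 KO. Arc was on the other side of zero, at 0.70 (edgeR adjusted p = 0.0728) and 0.31 (edgeR adjusted p = 0.0917), not called. Nr4a1 was uneven in fraction 5/6, with 8.56, 13.5 and 36.8 CPM in WT and 15.7, 20.1 and 39.1 CPM in FMR1 KO, so that replicate 3 was highest in both.

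Other genes that respond rapidly to activity were called in both directions. Of 44 tested in WT, 15 were higher in the pellet than in RNA, 10 lower and 19 not called, with a median of 0.13, beside 31.1% of all genes higher and 34.2% lower. FMR1 KO had 14 higher and 14 lower of 43, with a median of 0.04, close to the 31.7% and 35.1% of all genes. The same shares of all genes stand beside the counts of the next 2 lists. The highest were Plk2, a kinase that weakens active synapses, at 2.32 in WT and 2.18 in FMR1 KO, Myc at 2.04 and 1.47, Nr4a2, a relative of Nr4a1, at 1.69 and 1.41, and Irs2, an insulin receptor substrate, at 0.96 and 0.91. Jund, the remaining Jun gene, was at -2.78 and -3.02, on the other side of zero from Jun and Junb, with 193 to 432 counts in the WT pellet. Ppp1r15a, which restores translation after stress, was at -2.77 and -2.98. Fosl1 was at 0 to 2 counts in the WT pellet and 933 to 1348 in WT RNA. Amigo3 had no count in the WT pellet, and was at least 9.72-fold lower than in RNA relative to the median gene when 3 counts over the 3 libraries are taken as the limit.

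Late response genes, which the early factors switch on, had 3 of 10 higher and 5 lower in WT and 3 and 4 in FMR1 KO, with medians of -0.53 and -0.47. The 3 higher genes were Scg2 and Vgf, which encode secreted peptide precursors, at 2.80 and 2.75 and at 1.87 and 1.70, and Pcsk1, a protease that processes such precursors, at 1.38 and 1.26. Acvr1c, at -2.66 and -1.42, Nrn1, at -1.68 and -1.75, Inhba, at -1.14 and -0.79, and Gpr3, with 2 to 4 counts in the WT pellet, were lower. Upstream regulators had 9 of 22 higher and 8 lower in WT and 6 and 9 in FMR1 KO, with medians of 0.12 and -0.03. Mef2c was at 1.81 and 1.26, Rps6ka5, a kinase of CREB and histone H3, at 1.77 and 1.75, the coactivator Ep300 at 0.89 and 0.78, and Mrtfa, a coactivator of SRF, at 0.73 in both. Elk4, at -3.81 and -4.03, Elk1, at -2.86 and -3.42, and their partner Srf, at -1.50 and -1.19, were lower, as were the calcium channel gene Cacna1c, at -1.98 and -1.24, and the CREB coactivators Crtc2, at -1.27 and -1.59, and Crtc3, at -1.35 and -1.40. All values in these sentences are log2 occupancies called by edgeR in WT and then FMR1 KO.

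Enrichment called none of the 3 lists' genes in WT, where 1 gene of each list had an unadjusted p under 0.05 and DESeq2 called 0 too. With WT fraction 5/6 replicate 3 left out it called 2 of 37 rapid genes (Irs2 and Per1), 1 of 8 late genes (Rasgrp1) and 3 of 22 regulators (Crebbp, Ep300 and Mrtfb), all higher, beside 7.72% of all genes, and Rasgrp1, Crebbp and Mrtfb were named after their values were seen. In FMR1 KO, where 10.1% of all genes were called higher, it called 3 of 38 rapid genes higher, Irs2 at 0.97, Per1 at 0.89 and Myc at 0.85. Vgf at 0.96 and Scg2 at 0.67 were the 2 of 8 late genes, and Ep300 at 1.10, Cacna1c at 0.89 and, lower, Creb1 at -0.49 were the 3 of 22 regulators. When 1 library was left out, the calls were 2 to 4 for the rapid genes, 0 to 1 for the late genes and 0 to 2 for the regulators, and Myc was called each time. With library size alone no gene of the 3 lists was called in FMR1 KO. The low nuclease FMR1 KO libraries gave 0 rapid genes higher and 4 lower of 43 (Gadd45g, Ier5l, Jund and Klf2). They also gave 2 of 10 late genes higher (Pcsk1 and Rasgrp1), and of the regulators Ep300 higher and Srf lower. Over all genes, 1436 of 15478 were called higher there and 1651 (10.7%) lower. The low nuclease WT libraries gave 1 rapid gene higher (Egr4) and 2 lower (Mcl1 and Rgs2). They also gave 4 of 10 late genes higher (Pcsk1, Rasgrp1, Scg2 and Vgf), and of the regulators Cacna1c and Ep300 higher and Creb1 lower. Over all genes, 2218 of 15486 were called higher there and 1345 (8.69%) lower. The genes of these low nuclease counts were named after their values were seen. Comparisons between genotypes called 0 genes of any list by edgeR, with 0 to 4 genes of a list at an unadjusted p under 0.05.

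Across the 18 standard libraries the members did not form 1 pattern. Pearson's r of log2 CPM with the mean of the standardized members was 0.80 for Egr1, 0.79 for Junb, 0.77 for Jun and Fos, 0.73 for Arc and 0.72 for Ier2, but 0.31 for Fosb, -0.04 for Nr4a1, -0.09 for Npas4 and -0.36 for Egr3. The genes outside the list that were most like this mean were Irf2bpl (r = 0.88), Pkm (0.88), Tubb4b (0.87), Fam43b (0.87) and Lrrc47 (0.86). These r values are descriptions, since the libraries share depth and source. Each member is itself part of the mean, which raises its r beside those of the outside genes.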

How the data were processed

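RPF and RNA-seq counts were deposited by the authors as raw counts per gene. Per the labels and the study's methods, reads were trimmed with cutadapt 2.10, cleared of ribosomal RNA with Bowtie2 2.3.5, aligned to GRCm38 with STAR 2.7.8a, freed of duplicates with Picard and SAMtools 1.19.2 and counted with featureCounts 2.2.0. Duplicate removal can limit the count that 1 position of a short mRNA gives. The methods name barcodes for separating pooled libraries and do not say whether duplicates were matched by molecular tag. Peak heights are coverage signal deposited by the authors, called per library and not scaled. Whether the study's minimum height was applied to the files is not stated.

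Protein-coding genes without Cdk8 were filtered with filterByExpr (minimum count 10), scaled by TMM and tested with edgeR 4.0.16 (quasi-likelihood, R 4.3.3) on the groups compared, with Benjamini-Hochberg adjustment over all genes tested and a threshold of 0.05. SE is the fold change over the root of F. Alternatives were DESeq2 1.42.0, library size alone, no filter, all 6 groups in a fit, a replicate block, Cdk8 kept, low nuclease libraries, and leaving out each library. No pseudocount entered the CPM levels, and the log2 CPM used for correlations had a prior count of 2. Gene positions, lengths and coding sequence come from the GRCm38 annotation. The labels give 3 libraries per group, and p-values measure the spread between these libraries only. Rows without a gene name were not used. No columns of other samples were present (0).

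The 10 members, the other lists and the tests were chosen with earlier results of these data known. All members were named, and of the other lists at most 4 genes per direction with the largest called fold change in each of WT occupancy, FMR1 KO occupancy, WT enrichment and FMR1 KO enrichment, plus the 5 genes most like the members, Fmr1 and Cdk8. A regulator that this rule picked is not reported here. Lists of astrocyte, oligodendrocyte, microglia, endothelial, choroid plexus and fibroblast markers were counted too: in WT occupancy 3 of 5, 1 of 5, 2 of 5, 0 of 5, 1 of 4 and 0 of 4 were higher and 0, 1, 2, 3, 0 and 1 lower, with neurons 4 of 5 higher and erythroid cells 5 of 5 lower. In FMR1 KO occupancy 3, 1, 2, 1, 2 and 1 of the same lists were higher and 0, 2, 1, 0, 0 and 1 lower, with neurons 4 higher and 1 lower and erythroid cells 5 lower.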

Additional observations from a re-analysis of the deposited data

How the results depend on the processing

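The members' log2 values kept direction and side of the threshold in 78 of 78 cases with Cdk8 kept, 77 of 78 with DESeq2, 77 of 78 without the filter, 75 of 78 with all 6 groups fitted together, 73 of 78 with the replicate block and 516 of 588 when 1 library was left out, but in 52 of 78 with library size alone, 30 of 78 in low nuclease libraries and 11 of 40 there without the 3 RNA libraries held by 10 genes. The cause of the changes below was not tested. Fosb and Npas4 rest on the fewest counts, 3 to 12 and 5 to 44 in the standard RPF libraries.

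With library size alone, which places the median gene lower, so that these signs are not relative to it, in WT occupancy Arc was -0.49, Fos -0.15, Junb -0.28, Jun -0.37, Egr1 -0.53 and Ier2 -0.77. In FMR1 KO occupancy Arc was -0.24, Fos -0.32, Junb -0.26, Jun -0.37, Egr1 -0.92 and Ier2 -0.89. In FMR1 KO enrichment Nr4a1 was -0.068. In RNA between genotypes Jun was -0.022 and Nr4a1 -0.018. In the pellet between genotypes Jun was -0.019. In occupancy between genotypes Jun was 0.0024. In enrichment between genotypes Fos was -0.28, Junb -0.27, Npas4 -0.092, Nr4a1 -0.31 and Ier2 -0.30. Calls over all genes were 8 for WT enrichment, 188 for FMR1 KO enrichment and 17 for the pellet between genotypes. In low nuclease libraries, in WT occupancy Egr3 was 0.012 and Ier2 -0.66. In FMR1 KO occupancy Egr3 was 0.53, Npas4 0.31 and Ier2 -0.041. In WT enrichment Egr1 was -0.15, Egr3 -0.032 and Nr4a1 -0.80. In FMR1 KO enrichment Nr4a1 was -0.84. In RNA between genotypes Fos was -0.21, Fosb 0.55, Jun -0.058, Egr3 -0.22, Nr4a1 -0.18 and Ier2 -0.57. In the pellet between genotypes Arc was 0.049, Fos 0.040, Fosb 0.14, Junb 0.11, Jun -0.0025, Egr1 0.23, Egr3 0.24, Npas4 0.12, Nr4a1 0.35 and Ier2 0.0012. In occupancy between genotypes Fos was 0.28, Jun 0.12, Egr3 0.53, Npas4 0.83, Nr4a1 0.58 and Ier2 0.60. In enrichment between genotypes Arc was -0.37, Fos -0.17, Junb -0.077, Npas4 -0.22, Nr4a1 -0.022 and Ier2 -0.22. Calls there were 4388 for FMR1 KO occupancy, 3563 for WT enrichment, 3087 for FMR1 KO enrichment, 0 for RNA between genotypes, 3 for occupancy between genotypes and 3 for enrichment between genotypes. Without the 3 RNA libraries held by 10 genes, chosen after seeing the data, in WT occupancy Arc was -0.16, Junb -0.011 and Ier2 -0.99. In FMR1 KO occupancy Egr3 was 0.40 and Ier2 -0.43. In RNA between genotypes Fos was -0.021, Fosb 0.28, Jun -0.021, Egr1 -0.064, Egr3 -0.42, Nr4a1 -0.11 and Ier2 -0.62. In occupancy between genotypes Fos was 0.036, Egr1 0.26, Egr3 0.63, Npas4 0.57, Nr4a1 0.44 and Ier2 0.60. Calls were 6128 for FMR1 KO occupancy, 35 for RNA between genotypes and 1 for occupancy between genotypes. Calls with DESeq2 were 90 for WT enrichment, 24 for RNA between genotypes, 66 for the pellet between genotypes, 63 for occupancy between genotypes and 41 for enrichment between genotypes, and with all 6 groups fitted together 6 for WT enrichment, 7 for RNA between genotypes and 4 for occupancy between genotypes. Without the filter, in the pellet between genotypes Jun was -0.0052. Peak positions in all 3 libraries of a group numbered 6, with 0 at an exact match, 17 within 15 nt and 37 for 2 of 3 libraries.

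Correlations of deviations from the group means did not show a pairing of the standard libraries by replicate number (low nuclease libraries were not examined for this). Same-numbered correlations ran from -0.13 to 0.24 and no pair of groups had all 3 over 0.1. With 3 libraries per group this check cannot exclude that same-numbered libraries share a preparation. With the replicate block Npas4 was no longer called in FMR1 KO occupancy (-0.53, edgeR adjusted p = 0.116), in RNA between genotypes Nr4a1 was -0.013, in the pellet between genotypes Jun was -0.0033 and in occupancy between genotypes Fosb was 0.045 and Junb -0.0019. Under the replicate block calls were 0 for WT enrichment, 854 for FMR1 KO enrichment, 0 for the pellet between genotypes, 7 for occupancy between genotypes and 1 for enrichment between genotypes.

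Leaving out 1 library gave these ranges. In WT occupancy Fosb -0.64 to 0.26 and Npas4 -0.30 to 0.044. In FMR1 KO occupancy Fosb -0.61 to 0.30. In RNA between genotypes Fos -0.027 to 0.22, Fosb -0.72 to 0.21, Junb -0.32 to 0.12, Jun -0.15 to 0.092, Egr1 -0.10 to 0.21, Egr3 -0.071 to 0.21, Nr4a1 -0.14 to 0.16 and Ier2 -0.051 to 0.18. In the pellet between genotypes Arc -0.20 to 0.045, Fos -0.17 to 0.091, Fosb -0.67 to 0.26, Junb -0.16 to 0.029, Jun -0.089 to 0.087 and Ier2 -0.16 to 0.057. In occupancy between genotypes Fosb -0.61 to 0.52, Junb -0.22 to 0.23 and Jun -0.14 to 0.14. In enrichment between genotypes Fos -0.089 to 0.14, Junb -0.067 to 0.32, Jun -0.10 to 0.055, Npas4 -0.41 to 0.38, Nr4a1 -0.12 to 0.26 and Ier2 -0.078 to 0.16. Calls ranged from 0 to 1261 for WT enrichment, 548 to 1396 for FMR1 KO enrichment, 0 to 8 for the pellet between genotypes, 7 to 27 for occupancy between genotypes and 0 to 4 for enrichment between genotypes. FMR1 KO enrichment had 548 to 708 calls without pellet or fraction 5/6 replicate 1 or 3, against 1530.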
